A study of Mus musculus with 18 samples.

Results

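The response to lipopolysaccharide (LPS) was measured in mouse bone marrow macrophages that had stood with iron oxide nanoparticles (SPIO in the labels) before LPS was added. It rests on the 3 arrays labelled SPIO-LPS and the 3 labelled SPIO, 6 of the 18 arrays of the series, and on all 12393 genes, each read from 1 probe set, the one with the highest mean over the 18 arrays. Marrow from C57BL/6 mice aged 4 to 6 weeks was cultured in medium of which 20% had been conditioned by L929 cells, a mouse fibroblast line that secretes macrophage colony-stimulating factor. In SPIO-LPS, cells stood with 33 nm iron oxide particles for 24 h, were washed, and received fresh medium with 10 ng/ml LPS from Escherichia coli O111:B4 for 4 h. In SPIO, cells had the same particles and wash and then fresh medium alone for 4 h. Both groups thus carried the particles, and LPS was the only labelled difference between them. For comparison, LPS and CON cells had no particles, and of these only the LPS cells received LPS. Silica-LPS and Silica cells had 50 nm amorphous silica in place of iron oxide. The steps of 24 h and 4 h are also given for LPS cells, but no times are given for CON. Whether CON cells had the same wash and fresh medium could not be checked here. The series' design text gives 25 mg/ml for both particles; that unit may have been altered and could not be checked here. Replicates are called biological in the labels, which do not say whether the cultures came from separate or pooled animals, so the tests below speak only of how far one culture differed from the next.

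LPS is sensed by Toll-like receptor 4 (TLR4) together with the carrier protein CD14. One arm of the pathway, through the adaptor MyD88, activates NF-kB and MAP kinases and with them cytokine and chemokine genes. The other arm, through the adaptor TRIF, activates IRF3 and the gene of interferon beta, whose product then induces antiviral genes in the same culture. Macrophages take up iron oxide particles and can break them down in lysosomes. The iron freed there is kept in ferritin or leaves the cell through ferroportin.

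Values are log2 signals of single probe sets, normalised over all arrays by the depositors, and a difference of 1 on this scale is 2-fold. Arrays of the same group correlated at 0.9972 to 0.998 across probe sets in SPIO-LPS and SPIO, and an SPIO-LPS array with an SPIO array at 0.9532 to 0.9574. Median signals lay between 6.225 and 6.245 in SPIO-LPS and between 6.367 and 6.423 in SPIO. The 3′ minus 5′ difference of the control probe sets for Actb, which grows as RNA is shortened, was 0.522 ± 0.014 in SPIO-LPS and 0.657 ± 0.015 in SPIO (SD, n = 3 each), so it moved with the groups. For Gapdh it was 0.400 ± 0.064 in SPIO-LPS and 0.471 ± 0.026 in SPIO. The part of either measure in the results below was not tested.

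Defining markers of macrophages were high in both groups. Csf1r, the receptor for macrophage colony-stimulating factor, had a mean signal of 13.60 ± 0.014 in SPIO-LPS and 13.82 ± 0.008 in SPIO (SD, n = 3 each). Adgre1, which encodes F4/80, stood at 12.28 ± 0.032 in SPIO-LPS and 11.88 ± 0.048 in SPIO, and Cd68, a lysosomal membrane protein of macrophages, at 12.43 ± 0.038 in SPIO-LPS and 12.90 ± 0.030 in SPIO. Of 20 measured genes of macrophage identity, none had a group mean below 5 in either group. Markers of other cells were also read. T and NK cell genes stayed at or below 5.90 in SPIO-LPS and 5.34 in SPIO, whereas the neutrophil genes S100a8 and S100a9 lay at 12.74 and 12.15 in SPIO-LPS and at 12.79 and 12.23 in SPIO. The mean signal over 20 fibroblast and stroma genes was 9.193 to 9.238 per array in SPIO-LPS and 9.290 to 9.327 in SPIO. These cultures therefore gave signal for genes of other cell types, and in RNA from a whole culture fewer cells of a type and less RNA per cell cannot be told apart.

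LPS changed most of the measured genes in iron oxide-treated cells. By limma with Benjamini-Hochberg adjustment, at an adjusted p below 0.05, 3387 genes were higher in SPIO-LPS (27.3% of those tested) and 4551 lower (36.7%), 64.1% in all. With a threshold of 2-fold added, 640 genes were higher (5.16%) and 856 lower (6.91%), and at 4-fold 264 were higher (2.13%) and 129 lower (1.04%). Rises thus outnumbered falls past 4-fold, and falls outnumbered rises past 2-fold. The second balance depended on the scaling: among genes past 2-fold, 42.8% were higher with the deposited values and 55.1% after a further cyclic loess normalisation between arrays. The SPIO-LPS and SPIO arrays did not overlap for 8155 genes (65.8%). The median standard error of a gene's difference was 0.08, which gives a 95% interval of 0.17 on either side.

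The 10 largest rises were Il6 (9.05 ± 0.12), Cxcl1 (9.03 ± 0.13), Cxcl10 (8.82 ± 0.15), Mx1 (8.27 ± 0.18), Ccl5 (8.01 ± 0.058), Ifit1 (8.001 ± 0.12), Il1b (7.98 ± 0.082), Oasl1 (7.47 ± 0.12), Cmpk2 (7.32 ± 0.18) and Ccl4 (6.92 ± 0.086) (log2 difference ± standard error of the model). They encode cytokines and chemokines (Il6, Cxcl1, Cxcl10, Ccl5, Il1b, Ccl4) and interferon-induced proteins (Mx1, Ifit1, Oasl1, Cmpk2). The next 10 were Il1a (6.81 ± 0.16), Acod1 (6.81 ± 0.098), Ifit2 (6.78 ± 0.15), Rsad2 (6.64 ± 0.11), Iigp1 (6.61 ± 0.24), Usp18 (6.57 ± 0.097), Ifit3 (6.47 ± 0.099), Cxcl2 (6.39 ± 0.069), Cd40 (6.38 ± 0.064) and Gbp6 (6.27 ± 0.16). Array maxima lay near 14.5, and Cxcl10, Ccl5, Acod1 and Rsad2 had SPIO-LPS means of 14.17, 14.13, 14.02 and 14.29, so the rises of these genes may be understated at the upper end of the scale.

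**Figure D1:**
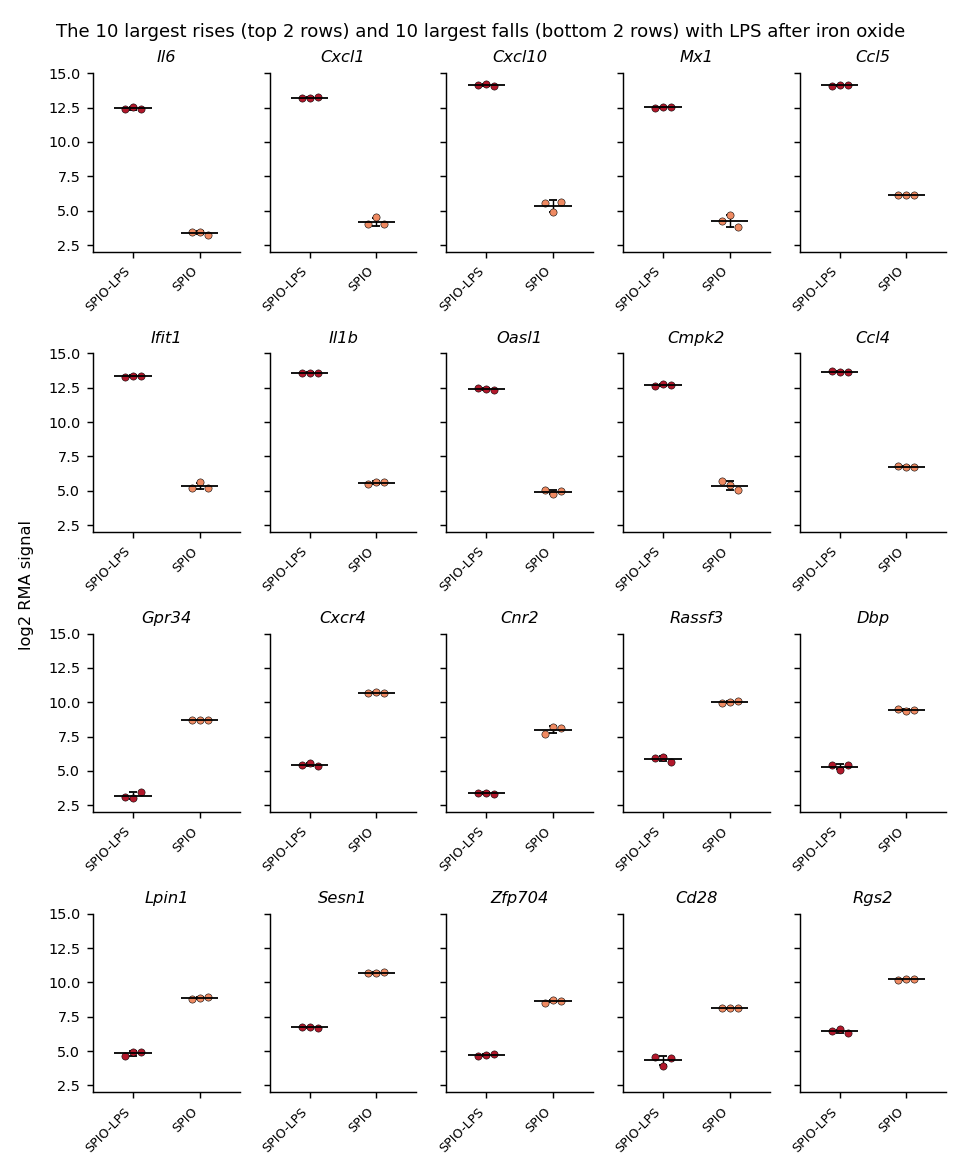
Log2 RMA signal (vertical axis) of the 10 genes with the largest rise (upper 2 rows) and the 10 with the largest fall (lower 2 rows); each point is 1 array, the line the mean and the bar the SD of 3 arrays. SPIO-LPS stands left of SPIO, and in none of the 20 genes do the arrays of the 2 groups overlap.

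Promoters of 5 of the most induced genes are printed because they hold the letters of motifs for factors of both arms of the pathway. Sequences of the 250 bases before the start site were read from RefSeq on build GRCm38.p6 for the first 3 induced genes with a kappaB motif, bound by NF-kB, and the first 3 with an interferon-stimulated response element, bound by interferon regulatory factors. Matches to these 2 motifs are in capitals, other motifs are not marked, and all sequences run 5′ to 3′ toward the gene. Il6 lies at chr5:30012864-30013113 on the plus strand, Cxcl1 at chr5:90890995-90891244 on the plus strand, Cxcl10 at chr5:92348890-92349139 on the minus strand, Ifit1 at chr19:34640639-34640888 on the plus strand and Oasl1 at chr5:114922990-114923239 on the plus strand.
Il6: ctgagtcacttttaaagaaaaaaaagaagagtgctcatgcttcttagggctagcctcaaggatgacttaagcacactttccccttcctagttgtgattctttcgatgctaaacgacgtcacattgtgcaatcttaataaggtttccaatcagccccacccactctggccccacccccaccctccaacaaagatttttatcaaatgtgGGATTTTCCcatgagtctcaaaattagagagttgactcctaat
Cxcl1: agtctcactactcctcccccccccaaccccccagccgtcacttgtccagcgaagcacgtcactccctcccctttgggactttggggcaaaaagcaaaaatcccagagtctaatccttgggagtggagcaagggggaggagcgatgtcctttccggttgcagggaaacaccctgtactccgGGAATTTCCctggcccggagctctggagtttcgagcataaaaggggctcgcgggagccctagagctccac
Cxcl10: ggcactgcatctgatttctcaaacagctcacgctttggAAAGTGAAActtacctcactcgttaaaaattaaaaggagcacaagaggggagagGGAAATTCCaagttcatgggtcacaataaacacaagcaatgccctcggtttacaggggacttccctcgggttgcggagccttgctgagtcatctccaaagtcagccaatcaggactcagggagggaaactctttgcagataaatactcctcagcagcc
Ifit1: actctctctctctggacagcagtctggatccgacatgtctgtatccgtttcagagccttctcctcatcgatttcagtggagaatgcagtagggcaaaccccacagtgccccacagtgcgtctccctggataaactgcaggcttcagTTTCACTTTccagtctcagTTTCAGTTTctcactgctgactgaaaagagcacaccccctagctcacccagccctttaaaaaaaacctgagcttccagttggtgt
Oasl1: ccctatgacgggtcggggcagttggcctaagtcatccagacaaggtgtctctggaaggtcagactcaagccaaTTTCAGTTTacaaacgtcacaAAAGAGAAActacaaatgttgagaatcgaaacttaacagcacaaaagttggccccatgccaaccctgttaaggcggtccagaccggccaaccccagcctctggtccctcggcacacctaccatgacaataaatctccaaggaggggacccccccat
The Il6 and Cxcl1 promoters each held 1 kappaB match, starting 43 and 70 bases before the gene. Cxcl10, whose product draws T cells, held both motifs, kappaB at 158 bases and the interferon element at 212 bases before its start. Ifit1 and Oasl1, both antiviral, held 2 interferon elements each and no kappaB match.

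Over all genes, the search covered 12559 promoters of 9882 genes, 300 bases each, of which 50 lie after the start, on both strands. The kappaB letters GGANNTTCC were found in 11.6% of 275 promoters of genes raised at least 4-fold (210 of 264 such genes had a promoter), in 4.7% of 149 promoters of genes lowered as much, and in 4.67% of all. The interferon element AAANNGAAA was found in 24.4% of raised, 6.04% of lowered and 8.79% of all promoters. The AP-1 letters TGANTCA stood at 13.1%, 7.38% and 6.45% of raised, lowered and all. Other motifs did not follow that order: the antioxidant response element TGACNNNGC was in 12%, 12.8% and 13.8%, the E2F letters TTTNNCGC in 5.45%, 9.4% and 7.31%, the cAMP response element TGACGTCA in 0.727%, 0.671% and 2.52%, and the lysosomal CLEAR element TCACGTGA in 1.09%, 1.34% and 1.47%. Both kappaB and the interferon element were in 9 promoters of raised genes, overlapping in 0. A match describes the letters and no binding, and several start sites of a gene were counted apart.

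Inflammatory cytokines rose almost as a whole. Of 21 measured, 18 were higher and 1 lower, with a median difference of 2.51, against 0.007 over all genes. As deposited, 27.3% of all genes were higher and 36.7% lower, shares to set beside the list counts here and below. Il6, an inducer of the acute phase, read 12.40, 12.57 and 12.38 in the SPIO-LPS arrays, against 3.48, 3.47 and 3.25 in the SPIO arrays. No array came near the other group, and the rise was 9.05 ± 0.12, or 531-fold (adjusted p = 3.97e-18). The SPIO signals lay near the lower end of the scale, so the rise may be understated. Il1b, the precursor of interleukin 1 beta, read 13.60, 13.60 and 13.56 in SPIO-LPS, against 5.48, 5.66 and 5.67 in SPIO, a rise of 7.98 ± 0.082 (adjusted p = 4.06e-19). Tnf, encoding tumour necrosis factor, read 13.09, 13.02 and 13.03 in SPIO-LPS, against 7.07, 6.92 and 6.91 in SPIO, a rise of 6.08 ± 0.084 (adjusted p = 8.27e-18). In both genes the SPIO-LPS arrays agreed within 0.1 and lay far above every SPIO array. Il12b, a subunit of interleukins that direct T cells, rose by 6.06 ± 0.14. The counterparts that restrain inflammation rose as well, though less: Il1rn, which blocks the interleukin 1 receptor, by 4.58 ± 0.091 and Il10 by 3.45 ± 0.13. Il10 signals were 6.66, 6.95 and 6.84 in SPIO-LPS, against 3.34, 3.63 and 3.13 in SPIO. Il16, a chemoattractant for cells bearing CD4, was the single cytokine that fell, by 1.89 ± 0.075. Il33 at 0.17 ± 0.097 (adjusted p = 0.141) and Tgfb1 at 0.03 ± 0.071 (adjusted p = 0.769) were not called, though Tgfb1 was after cyclic loess (adjusted p = 0.000495).

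Chemokines for neutrophils, monocytes and T cells rose in common. Of 12 CXC chemokines 8 were higher and 3 lower (9 and 1 after cyclic loess), and of 14 CC chemokines 12 were higher and 2 lower. Cxcl1, which attracts neutrophils, read 13.18, 13.20 and 13.26 in SPIO-LPS, against 4.05, 4.51 and 3.999 in SPIO, a 522-fold rise (adjusted p = 8.18e-18). Cxcl2, which binds the same receptor, read 13.49, 13.57 and 13.57 in SPIO-LPS, against 7.14, 7.21 and 7.12 in SPIO, a rise of 6.39 ± 0.069 (adjusted p = 6.12e-19). Both genes read above 13 in every SPIO-LPS array and below 8 in every SPIO array. The ligands of CXCR3, a receptor of activated T cells, rose by 8.82 ± 0.15 (Cxcl10), 5.63 ± 0.13 (Cxcl11) and 5.57 ± 0.14 (Cxcl9). Among CC chemokines, Ccl5 read 14.10, 14.17 and 14.14 in SPIO-LPS, against 6.14, 6.13 and 6.11 in SPIO (difference 8.01 ± 0.058, adjusted p = 1.03e-20). Ccl3 and Ccl4, which attract monocytes and T cells, rose by 5.60 ± 0.073 and 6.92 ± 0.086, and the monocyte attractants Ccl2 and Ccl12 by 4.56 ± 0.091 and 5.96 ± 0.11. Ccl20, the ligand of CCR6, rose by 3.96 ± 0.13. Against the trend, Ccl6 fell by 0.68 ± 0.043, Cxcl12 by 0.33 ± 0.045 and Cxcl14 by 0.31 ± 0.064, the last without a call after cyclic loess (adjusted p = 0.131). Ppbp fell by 0.32 ± 0.13 (adjusted p = 0.0389), a call that was lost after cyclic loess (adjusted p = 0.321) and without SPIO array 2 or 3 or SPIO-LPS array 1 or 3 (adjusted p = 0.0906, 0.128, 0.231 and 0.0593).

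Receptors split in both directions, 8 higher and 5 lower of 15, against 27.3% higher and 36.7% lower of all genes. Cxcr4, the receptor for Cxcl12, read 5.47, 5.61 and 5.33 in SPIO-LPS, against 10.65, 10.72 and 10.69 in SPIO, a 37.2-fold fall (adjusted p = 9.32e-18), with no overlap. Ccr2, the receptor for Ccl2, fell by 1.81 ± 0.12, and its signals were 4.96, 5.61 and 5.26 in SPIO-LPS, against 7.12, 7.09 and 7.04 in SPIO. Cxcr3 fell by 1.94 ± 0.11. In contrast Fpr2, a receptor for formyl peptides, rose by 5.53 ± 0.053, Ccrl2, a chemerin-binding receptor, by 4.56 ± 0.057 and C5ar1, the receptor for complement C5a, by 1.36 ± 0.068. The fractalkine receptor Cx3cr1 (-0.15 ± 0.12, adjusted p = 0.284) and Ccr7 (0.21 ± 0.093, adjusted p = 0.0565) were not called, though Ccr7 was without SPIO-LPS array 1 (adjusted p = 0.00981).

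Interferon-stimulated genes rose nearly without exception. Of 34 antiviral genes 33 were higher and 0 lower, with a median of 4.03, and of 9 interferon-inducible GTPases all 9 were higher, with a median of 4.73. Mx1, an interferon-induced gene, read 12.46, 12.55 and 12.54 in SPIO-LPS, against 4.27, 4.66 and 3.81 in SPIO, a rise of 8.27 ± 0.18 (adjusted p = 1.11e-15). Ifit1, which binds viral RNA, read 13.28, 13.39 and 13.37 in SPIO-LPS, against 5.19, 5.61 and 5.23 in SPIO, a rise of 8.001 ± 0.12 (adjusted p = 2.28e-17). The spread between SPIO arrays was wider than that between SPIO-LPS arrays in both genes, and neither came close to overlapping. Rsad2, which makes the antiviral nucleotide ddhCTP, rose by 6.64 ± 0.11, and Usp18, which removes ISG15 from proteins, by 6.57 ± 0.097. Among the GTPases that attack vacuoles of intracellular microbes, Iigp1 rose by 6.61 ± 0.24, Gbp6 by 6.27 ± 0.16, Gbp2 by 5.61 ± 0.16 and Igtp by 4.16 ± 0.075. Ifitm6, with 7.17, 7.09 and 7.08 in SPIO-LPS, against 7.07, 6.97 and 6.89 in SPIO, was the 1 antiviral gene not called (adjusted p = 0.12), but was after cyclic loess (adjusted p = 0.000175).

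Signalling factors above these genes moved in the same direction for the most part, 15 higher and 3 lower of 19. Ifnb1, the gene of interferon beta, had low signals of 5.42, 5.63 and 5.26 in SPIO-LPS, against 3.79, 4.07 and 4.09 in SPIO, which did not overlap (difference 1.45 ± 0.12, adjusted p = 2.91e-08). Irf7, which amplifies interferon production, rose by 5.13 ± 0.078, Stat2 by 3.28 ± 0.097, Irf1 by 2.64 ± 0.048 and Irf9 by 1.42 ± 0.048. Irf8, a factor of the myeloid lineage, read 9.01, 9.21 and 9.04 in SPIO-LPS, against 10.11, 10.09 and 10.20 in SPIO. Every SPIO-LPS array was lower, and the fall was 1.05 ± 0.055 (adjusted p = 7.74e-11). Irf3, activated by phosphorylation in the TRIF arm, fell by 0.43 ± 0.056, and the interferon gamma receptor chain Ifngr1 by 0.63 ± 0.052. Jak1 was called only after cyclic loess (0.13 ± 0.076, adjusted p = 0.141 as deposited and 0.00373 after loess).

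Within the Toll-like receptor system the LPS receptor itself was lower and its carrier higher. Tlr4 read 8.02, 7.98 and 8.12 in SPIO-LPS, against 8.79, 8.80 and 8.76 in SPIO, a fall of 0.75 ± 0.049 (adjusted p = 1.35e-09). Cd14 read 13.59, 13.63 and 13.65 in SPIO-LPS, against 11.24, 11.30 and 11.34 in SPIO, a rise of 2.33 ± 0.040 (adjusted p = 8.14e-17). Ly96, which encodes MD-2, was not called (0.04 ± 0.049, adjusted p = 0.55), but was after cyclic loess (adjusted p = 0.000392). Of 17 receptors and adaptors 9 were higher, among them Tlr3 (2.72 ± 0.082), Tlr2 (2.39 ± 0.057) and Myd88 (2.34 ± 0.043), and 4 were lower, among them the kinase Irak1 (-0.58 ± 0.054). All 18 genes of a list of NF-kB subunits, feedback inhibitors and linked genes such as Birc2 and Traf1 were higher, with a median of 2.26. Traf1, an adaptor at tumour necrosis factor receptors, rose by 5.94 ± 0.11, Nfkbiz, a nuclear partner of NF-kB, by 4.29 ± 0.095, the ubiquitin-editing inhibitor Tnfaip3 by 2.66 ± 0.12, and Nfkbia, which holds NF-kB in the cytoplasm, by 1.35 ± 0.041.

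Brakes on MAP kinase and cytokine signalling moved both ways, 9 higher and 7 lower of 16, against 27.3% and 36.7% of all genes. Socs3, which inhibits signalling from the Il6 receptor, read 12.77, 12.72 and 12.81 in SPIO-LPS, against 7.05, 7.31 and 6.96 in SPIO, a rise of 5.66 ± 0.094 (adjusted p = 5.2e-17). The phosphatases Dusp2 and Dusp16 rose by 3.58 ± 0.076 and 2.92 ± 0.053. Zfp36l1 and Zfp36l2, which bind mRNAs and speed their decay, fell by 2.98 ± 0.065 and 2.32 ± 0.048, and Tsc22d3, a glucocorticoid-induced inhibitor of NF-kB, by 3.45 ± 0.089. Of 23 immediate-early factors 12 were higher and 5 lower 4 h after LPS. Atf3 rose by 2.03 ± 0.052, Batf by 1.93 ± 0.11 and Junb by 1.82 ± 0.069, whereas Egr1 fell by 2.03 ± 0.066 and Klf10 by 1.27 ± 0.046.

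Effector enzymes and secreted mediators rose in 22 of 31 genes and fell in 6. Acod1, which makes itaconate from an intermediate of the citrate cycle, read 14.02, 14.02 and 14.01 in SPIO-LPS, against 7.32, 7.05 and 7.27 in SPIO, a rise of 6.81 ± 0.098 (adjusted p = 1.19e-17). Ptgs2, the inducible cyclooxygenase, rose by 2.83 ± 0.084 and Ptges, which acts after it on the way to prostaglandin E2, by 4.39 ± 0.099. Nos2, the inducible nitric oxide synthase, had signals of 5.77, 6.06 and 5.75 in SPIO-LPS, against 4.43, 4.37 and 4.47 in SPIO. The groups did not overlap, but the level was low at this time and the rise only 1.44 ± 0.11 (adjusted p = 5.7e-09). Ch25h, which makes 25-hydroxycholesterol, rose by 5.27 ± 0.077, the protease Mmp13 by 4.32 ± 0.084 and the acute-phase protein Saa3 by 4.13 ± 0.13. Alox5ap, needed for leukotriene synthesis, fell by 0.89 ± 0.038 and the prostaglandin E2 receptor Ptger2 by 1.56 ± 0.064. Arg1, the cytosolic arginase, overlapped between the groups, with 6.77, 6.54 and 6.31 in SPIO-LPS, against 5.81, 6.69 and 6.13 in SPIO (adjusted p = 0.142). It was called without the second SPIO array (adjusted p = 0.00918) and after cyclic loess (adjusted p = 0.0217). The mitochondrial arginase Arg2 differed by 0.21 ± 0.089 (adjusted p = 0.0467), a call lost without any 1 of the 6 arrays (adjusted p = 0.0523 to 0.145). Complement and acute-phase genes were higher in 14 of 19 and lower in 4. Cfb, of the alternative complement pathway, rose by 4.92 ± 0.15 and Slpi, a protease inhibitor, by 3.17 ± 0.083, whereas C1qa and C1qc, subunits of C1q, fell by 0.76 ± 0.038 and 0.46 ± 0.044.

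Most molecules for contact with T cells rose. Cd40 read 12.42, 12.43 and 12.46 in SPIO-LPS, against 5.91, 6.09 and 6.17 in SPIO, a rise of 6.38 ± 0.064 (adjusted p = 4.06e-19). In this list of costimulatory and checkpoint ligands 12 of 15 were higher and 1 lower. Cd274, which encodes the checkpoint ligand PD-L1, rose by 3.52 ± 0.062, the adhesion molecule Icam1 by 3.75 ± 0.049 and Cd86 by 0.59 ± 0.057, while Cd80 was not called (-0.02 ± 0.073, adjusted p = 0.783) unless its probe sets were averaged (adjusted p = 0.0153). Class II genes rose less: 5 of 8 were higher and 1 lower, with H2-Ab1 at 1.27 ± 0.089. For class I, loading and the immunoproteasome rose (Tap1 by 3.73 ± 0.055, Psmb9 by 2.35 ± 0.051, Psmb8 by 1.93 ± 0.039), in a list with 11 of 16 higher and 3 lower. The heavy chains H2-K1 (0.04 ± 0.043, adjusted p = 0.488) and H2-D1 (0.05 ± 0.035, adjusted p = 0.202) were not called, at signals above 13 in both groups, but both were called when a gene's probe sets were averaged (adjusted p = 8.6e-10 and 6.71e-05).

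Inflammasome and cell death genes were higher in 12 of 17 and lower in 3. Nlrp3, a sensor of crystals and particles among other signals, read 11.03, 11.41 and 11.17 in SPIO-LPS, against 7.51, 7.20 and 7.495 in SPIO, a rise of 3.80 ± 0.11 (adjusted p = 3.64e-14). Mefv, which encodes pyrin, rose by 4.35 ± 0.078, Casp4, which binds LPS inside cells, by 3.63 ± 0.051 and Casp1 by 2.06 ± 0.051. Pycard, the adaptor between sensor and caspase, fell by 0.89 ± 0.040 and Naip5, a flagellin sensor, by 0.53 ± 0.050.

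Surface receptors of resting macrophages led the falls. Gpr34, a receptor for lysophosphatidylserine, read 3.08, 3.03 and 3.51 in SPIO-LPS, against 8.72, 8.67 and 8.73 in SPIO, the largest fall of all genes at 5.50 ± 0.14 (adjusted p = 9.18e-15). Cnr2, the cannabinoid receptor of immune cells, read 3.42, 3.43 and 3.32 in SPIO-LPS, against 7.69, 8.17 and 8.14 in SPIO, a fall of 4.61 ± 0.16 (adjusted p = 4.46e-13). With LPS both lay near the lower end of the scale, so their falls may be understated. Of 20 G protein-coupled and other surface receptors 11 were lower and 8 higher. Hcar2, a receptor for ketone bodies and niacin, rose by 5.16 ± 0.12, Gpr84, a receptor for medium-chain fatty acids, by 4.97 ± 0.086 and the adhesion receptor Adgre4 by 0.96 ± 0.10. Further large falls were Rassf3 (-4.14 ± 0.12), the lipid phosphatase Lpin1 (-4.02 ± 0.098), Cd28 (-3.79 ± 0.13), Rgs2, which shortens G protein signals (-3.78 ± 0.065), the ceramide kinase Cerk (-3.78 ± 0.093) and Pdcd4, an inhibitor of translation (-3.17 ± 0.099). Zfp704, Slc46a3, Otulinl, N4bp2l1, Zdhhc14, St6gal1, Mknk2 and Sbk1 completed the 20 largest, with Cxcr4, Tsc22d3, Dbp and Sesn1, and lay between -3.93 ± 0.14 and -3.25 ± 0.18.

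Clearance receptors moved both ways. Of 33, 12 were higher and 19 lower. Olr1, a receptor for oxidised lipoprotein, rose by 5.24 ± 0.14, Marco, a scavenger receptor for bacteria and mineral particles, by 3.74 ± 0.075, and Msr1 by 1.58 ± 0.043. Marco signals were 11.57, 11.40 and 11.69 in SPIO-LPS, against 7.77, 7.81 and 7.86 in SPIO. Mertk, a receptor for dying cells, read 7.85, 8.01 and 7.85 in SPIO-LPS, against 10.61, 10.59 and 10.69 in SPIO, a fall of 2.73 ± 0.074 (adjusted p = 1.78e-14), and its ligand Gas6 fell by 1.47 ± 0.038. Arrays of the 2 groups were far apart for both receptors, in opposite directions. Genes of macrophage identity were higher in 7 of 20 and lower in 12, and alternative activation genes higher in 10 of 24 and lower in 8. The shares over all genes were 27.3% higher and 36.7% lower. Clec10a, a lectin of alternatively activated cells, fell by 1.41 ± 0.12 and Tgm2, a transglutaminase, rose by 1.82 ± 0.041.

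Lysosomal genes fell broadly and by little. Of 36 measured, 32 were lower and 2 higher, with a median of -0.68 that stood at -0.48 after cyclic loess. Npc1, which moves cholesterol out of lysosomes, fell by 1.26 ± 0.058, the mannosidase gene Manba by 1.59 ± 0.037 and Sort1, a receptor that sorts proteins to lysosomes, by 1.11 ± 0.054. Ctsc, the protease that activates granule serine proteases, was an exception: it read 13.21, 13.17 and 13.15 in SPIO-LPS, against 11.62, 11.63 and 11.62 in SPIO, a rise of 1.55 ± 0.033 (adjusted p = 8.09e-16). The regulator Tfeb fell by 0.89 ± 0.078.

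Mitochondrial genes fell in a similar way, with 23 of 27 genes of the citrate cycle and respiratory chain lower and 1 higher (median -0.39), or 20 and 3 after cyclic loess. Idh1, a cytosolic and peroxisomal isocitrate dehydrogenase that was counted with them, fell by 1.83 ± 0.042, Fh1, the fumarase, by 0.91 ± 0.045 and Sdhb, a subunit of succinate dehydrogenase, by 0.69 ± 0.045. Cycs, which encodes cytochrome c, was the 1 that rose as deposited (0.80 ± 0.11). Glycolysis and hypoxia genes were higher in 12 of 21 and lower in 6. Pfkfb3, whose product speeds glycolysis, read 9.75, 9.78 and 9.70 in SPIO-LPS, against 7.64, 7.61 and 7.66 in SPIO, a rise of 2.11 ± 0.048 (adjusted p = 1.95e-15), and the glucose transporter Slc2a1 rose by 1.41 ± 0.045. Ldha, lactate dehydrogenase, was not called (0.10 ± 0.047, adjusted p = 0.0843), but was after cyclic loess (adjusted p = 0.00105).

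Of 19 genes of cholesterol synthesis and uptake 11 were higher and 6 lower, or 11 and 2 after cyclic loess: the master regulator Srebf2 rose by 1.20 ± 0.053 and Cyp51 by 0.97 ± 0.049, whereas Dhcr7, which catalyses the last step, fell by 1.63 ± 0.084. Targets of liver X receptors were lower in 11 of 17 and higher in 3, with the exporter Abcg1 down by 1.02 ± 0.071 and Abca1 up by 0.58 ± 0.059.

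Clock genes fell in 11 of 18 and rose in 3, or in 11 and 5 after cyclic loess. Dbp, a clock-controlled transcription factor, read 5.43, 5.08 and 5.41 in SPIO-LPS, against 9.49, 9.40 and 9.41 in SPIO, a fall of 4.13 ± 0.085 (adjusted p = 5.89e-16), and its relative Tef fell by 2.05 ± 0.079. Nr1d2 fell by 1.49 ± 0.045 and Per2 by 1.66 ± 0.17. Sesn1, a stress protein and p53 target, read 6.75, 6.73 and 6.70 in SPIO-LPS, against 10.67, 10.67 and 10.75 in SPIO, a fall of 3.97 ± 0.094 (adjusted p = 3e-15). Other members of the p53 list moved both ways. Cdkn1a, which encodes the cell cycle inhibitor p21, rose by 2.70 ± 0.049 and Gadd45b by 2.77 ± 0.053, whereas Trp53inp1 (-2.79) and Zmat3 (-1.34) fell. That list had 8 higher and 10 lower of 22, against 27.3% higher and 36.7% lower of all genes. Its median of -0.12 turned to 0.04 after cyclic loess. Of 42 replication and mitosis genes 25 were lower and 9 higher (14 higher and 16 lower after cyclic loess), with Cdkn2c down by 1.83 ± 0.088, Mcm3 down by 1.01 ± 0.064 and Mki67 up by 1.41 ± 0.090.

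Genes of protein synthesis were lower for the most part as deposited. Ribosomal proteins were lower in 25 of 27 and higher in 0, with a median of -0.31 (Rplp0 fell by 0.40 ± 0.035), and 2 were higher and 23 lower after cyclic loess. Ribosome biogenesis had 5 higher and 13 lower of 26, against 27.3% higher and 36.7% lower of all genes. Its median of -0.15 turned to 0.12, with 13 higher and 10 lower, after cyclic loess. ER chaperones were lower in 14 of 19 and higher in 2, or 10 and 4 after cyclic loess (Dnajb9 fell by 1.23 ± 0.046, and Hspa5, the chaperone BiP, rose by 0.18 ± 0.036). Heat shock genes were higher in 5 of 15 and lower in 10, or in 5 and 6 after cyclic loess. The inducible Hspa1a and Hspa1b rose by 2.16 ± 0.12 and 2.19 ± 0.13. These 2 genes are near-identical copies and may share probes. In the ATF4 list 9 of 23 were higher and 5 lower, or 12 and 1 after cyclic loess, with Ppp1r15a, which restarts translation after stress, up by 2.77 ± 0.059.

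Among 31 myeloid transcription factors 15 were higher and 12 lower, against 27.3% and 36.7% of all genes. Ets2 rose by 3.34 ± 0.055, Prdm1 by 1.89 ± 0.056 and Spi1, which encodes PU.1, by 1.49 ± 0.053. Mef2c fell by 2.14 ± 0.084 and Pparg, a nuclear receptor of lipid-handling macrophages, by 2.14 ± 0.16, with signals of 4.58, 4.46 and 5.28 in SPIO-LPS, against 6.79, 6.91 and 7.03 in SPIO.

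Iron genes are of interest because these cells had stood with iron oxide. Of 27 genes of iron transport, storage and sensing 10 were higher and 12 lower, near the 27.3% and 36.7% of all genes, and the median was 0.005, which turned to -0.006 after cyclic loess. Slc40a1, which encodes the iron exporter ferroportin, read 9.01, 8.92 and 9.06 in SPIO-LPS, against 10.79, 10.79 and 10.87 in SPIO, a 3.54-fold fall (difference -1.82 ± 0.095, adjusted p = 6.31e-11). Tfrc, the transferrin receptor, read 10.32, 10.23 and 10.30 in SPIO-LPS, against 11.14, 11.26 and 11.25 in SPIO, a fall of 0.94 ± 0.048 (adjusted p = 5.02e-11). Export and transferrin-bound uptake were thus both lower at the mRNA level, in every array. Importers of free iron moved both ways: Slc11a2, which encodes DMT1, rose by 2.00 ± 0.057 and Slc39a14, which encodes ZIP14, by 2.39 ± 0.077, whereas Slc39a8, which encodes ZIP8, fell by 0.95 ± 0.15. Cp, the ferroxidase ceruloplasmin, read 10.25, 10.25 and 10.29 in SPIO-LPS, against 5.81, 5.87 and 6.00 in SPIO, a rise of 4.37 ± 0.069 (adjusted p = 3.11e-17). Steap4, a metal reductase, rose by 3.38 ± 0.20 and Lcn2, which binds bacterial siderophores, by 2.00 ± 0.080. Fth1, the ferritin heavy chain, was at the top of the scale in both groups, with 14.53, 14.53 and 14.54 in SPIO-LPS, against 14.51, 14.50 and 14.47 in SPIO, and was not called (adjusted p = 0.325). Slc11a1, a gene of the metal transporter family, fell by 0.20 ± 0.045 (adjusted p = 0.000885), a call lost after cyclic loess (adjusted p = 0.146). Hamp, which encodes hepcidin, was near the bottom of the scale, at 4.91 ± 0.091 in SPIO-LPS and 4.64 ± 0.14 in SPIO (SD, n = 3 each), and its call (adjusted p = 0.0258) was lost without SPIO array 2 or SPIO-LPS array 2 or 3 (adjusted p = 0.134, 0.0949 and 0.0533).

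Heme genes were higher in 5 of 16 and lower in 9. Hmox1, which breaks heme down, read 12.49, 12.43 and 12.58 in SPIO-LPS, against 11.65, 11.80 and 11.69 in SPIO, a rise of 0.79 ± 0.073 (adjusted p = 8.59e-08). Blvra, which acts after it, fell by 1.38 ± 0.048. Alas1, the first enzyme of heme synthesis, rose by 1.56 ± 0.053, Spic, a factor of iron-recycling macrophages, by 1.50 ± 0.17, and Hp, the haemoglobin carrier haptoglobin, by 2.45 ± 0.069. Of 9 metallothionein and zinc genes 5 were higher and 2 lower. Mt2 rose by 2.17 ± 0.056 and the zinc exporter Slc30a1 by 1.38 ± 0.051. Mt1 read 12.14, 12.15 and 12.15 in SPIO-LPS, against 12.12, 12.09 and 12.11 in SPIO, and was not called (adjusted p = 0.501), but was at an adjusted p of 0.02 after cyclic loess.

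Targets of the antioxidant factor NRF2 were higher in 14 of 32 and lower in 14, with a median of -0.07 that turned to 0.11 after cyclic loess. Slc7a11, the cystine importer, read 11.32, 11.32 and 11.34 in SPIO-LPS, against 7.02, 7.08 and 7.07 in SPIO, a rise of 4.27 ± 0.14 (adjusted p = 1.96e-13). Srxn1, which repairs peroxiredoxins, rose by 1.78 ± 0.066, Sqstm1, the autophagy receptor p62, by 1.75 ± 0.045 and Txnrd1, thioredoxin reductase, by 1.36 ± 0.058. Gclm, a subunit of the enzyme that starts glutathione synthesis, was not called (0.00 ± 0.053, adjusted p = 0.957). The glutathione peroxidases Gpx1 and Gpx4 fell by 0.71 ± 0.043 and 0.88 ± 0.043. Nfe2l2, the gene of NRF2, rose by 0.84 ± 0.042.

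Markers of other cell types are given beside the 27.3% higher and 36.7% lower of all genes, to which several of these small lists were close. Neutrophil genes were higher in 6 of 15 and lower in 5, of which Lcn2 is also made by stimulated macrophages. Fibroblast and stroma genes were higher in 4 of 20 and lower in 10, with a median of -0.20 (Fn1 fell by 0.42 ± 0.10). Of 11 T and NK cell genes 6 were higher and 0 lower (3 and 0 after cyclic loess), all at low signals, with Cd3e at 5.52 ± 0.080 in SPIO-LPS and 5.27 ± 0.18 in SPIO (SD, n = 3 each). The call of Cd3e (adjusted p = 0.0349) was lost without SPIO array 2 or 3 or SPIO-LPS array 1 or 2 (adjusted p = 0.156, 0.0983, 0.119 and 0.0562). Dendritic cell genes were higher in 2 and lower in 1 of 9, B cell genes in 4 and 3 of 10, erythroid genes in 3 and 1 of 9 (1 and 1 after cyclic loess), osteoclast genes in 5 and 2 of 8, and mast cell genes in 3 and 0 of 11. Acp5, the tartrate-resistant phosphatase of osteoclasts and macrophages, moved most among these (2.41 ± 0.069), followed by Hdc, the histamine-forming enzyme of mast cells and of stimulated macrophages (2.14 ± 0.10). Their part in the other results was not tested.

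The LPS response after iron oxide was next set against that of cells without particles, LPS minus CON, which shares no array with it. No treatment times are given for CON, and the part of its handling in the differences below was not tested. Across genes the responses correlated at 0.960 (Pearson, 12393 genes of the same 12 arrays, a description) with a slope of 0.981. Of the 640 genes raised at least 2-fold after iron oxide, 562 were so raised in plain medium, 87.8% of them and 86.3% of the 651 raised there (5.25% of all genes). Of the 856 lowered genes 653 were shared, 76.3% of them and 85.7% of the 762 lowered in plain medium (6.15% of all genes). The difference between the responses was tested as an interaction in limma. It was positive for 462 genes (3.73% of those tested) and negative for 628 (5.07%), 8.8% in all, of which 37 (0.299%) and 29 (0.234%) reached 2-fold. A positive difference means a larger rise or a smaller fall after iron oxide. Of the 462, 179 rose and 131 fell under both conditions, 76 rose after iron oxide alone, 46 fell in plain medium alone, and 30 fell in plain medium and rose after iron oxide. Of the 628, 245 rose and 230 fell under both, 71 fell after iron oxide alone, 52 rose in plain medium alone, and 30 rose in plain medium and fell after iron oxide. A difference can come from the level before LPS or the level with it. Among the 462, SPIO was called below CON for 215 and SPIO-LPS above LPS for 280. Among the 628, SPIO was called above CON for 366 and SPIO-LPS below LPS for 340. Both levels are terms of the difference by which these genes were selected, so their directions were largely set by that selection. The counts only describe the selected genes, and the shares over all genes were not computed.

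**Figure D2:**
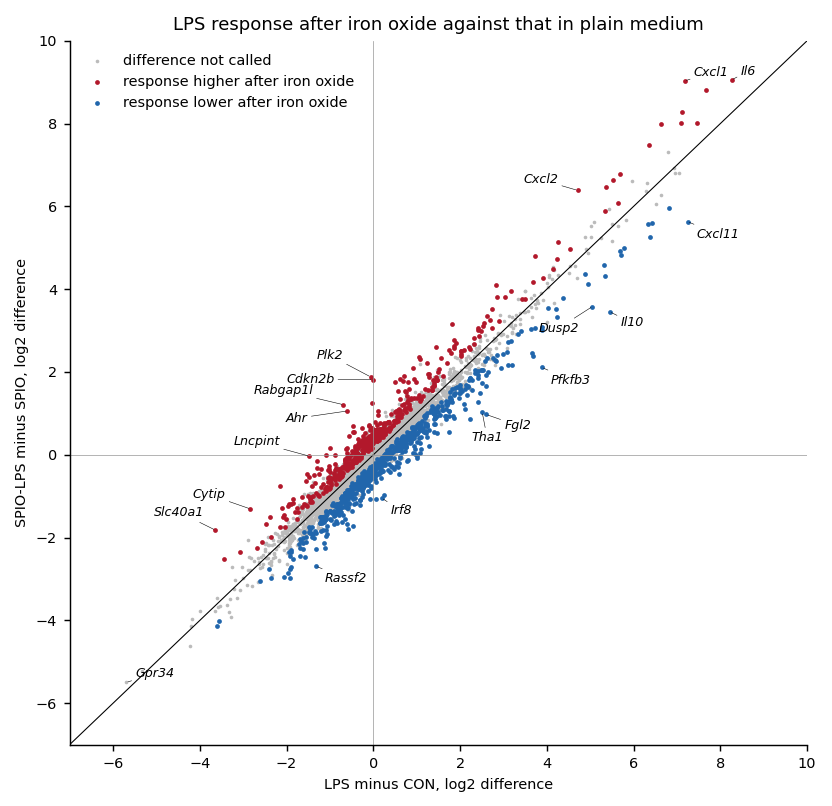
Log2 LPS response after iron oxide (SPIO-LPS minus SPIO, vertical) against that in plain medium (LPS minus CON, horizontal), 1 point per gene with the line of equality; 462 genes in red had a higher and 628 in blue a lower response after iron oxide at an adjusted p below 0.05. Points lie along the line with a slope of 0.981, and named genes stand away from it, except Gpr34 on it.

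Some genes answered LPS only after iron oxide, and for these the difference itself was called. Plk2, a kinase induced by stress, read 11.23, 11.13 and 11.20 in SPIO-LPS, against 9.26, 9.29 and 9.37 in SPIO, a rise of 1.88 ± 0.044. In plain medium it read 9.56, 9.60 and 9.61 in LPS, against 9.65, 9.62 and 9.68 in CON, and the difference between responses was 1.94 ± 0.062 (adjusted p = 5.06e-11). Cdkn2b, which encodes the cell cycle inhibitor p15, read 7.71, 7.91 and 7.85 in SPIO-LPS, against 5.94, 6.16 and 5.93 in SPIO, and 6.13, 6.38 and 6.14 in LPS, against 6.39, 6.16 and 6.15 in CON. The LPS arrays overlapped those of CON, and the difference between responses was 1.83 ± 0.12 (adjusted p = 1.72e-07). Ahr, the aryl hydrocarbon receptor, and Rabgap1l, a regulator of Rab GTPases, changed direction: after iron oxide they rose by 1.06 ± 0.078 and 1.21 ± 0.069, and in plain medium they differed by -0.60 ± 0.078 and -0.69 ± 0.069. The differences between responses were 1.66 ± 0.11 and 1.90 ± 0.097 (adjusted p = 1.72e-07 and 1.01e-08). In the opposite sense Irf8 fell by 1.05 ± 0.055 after iron oxide, against a response of 0.20 ± 0.055 in plain medium, where it read 10.01, 10.05 and 10.06 in LPS, against 9.79, 9.84 and 9.91 in CON (difference -1.25 ± 0.078, adjusted p = 9.62e-08).

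**Figure D3:**
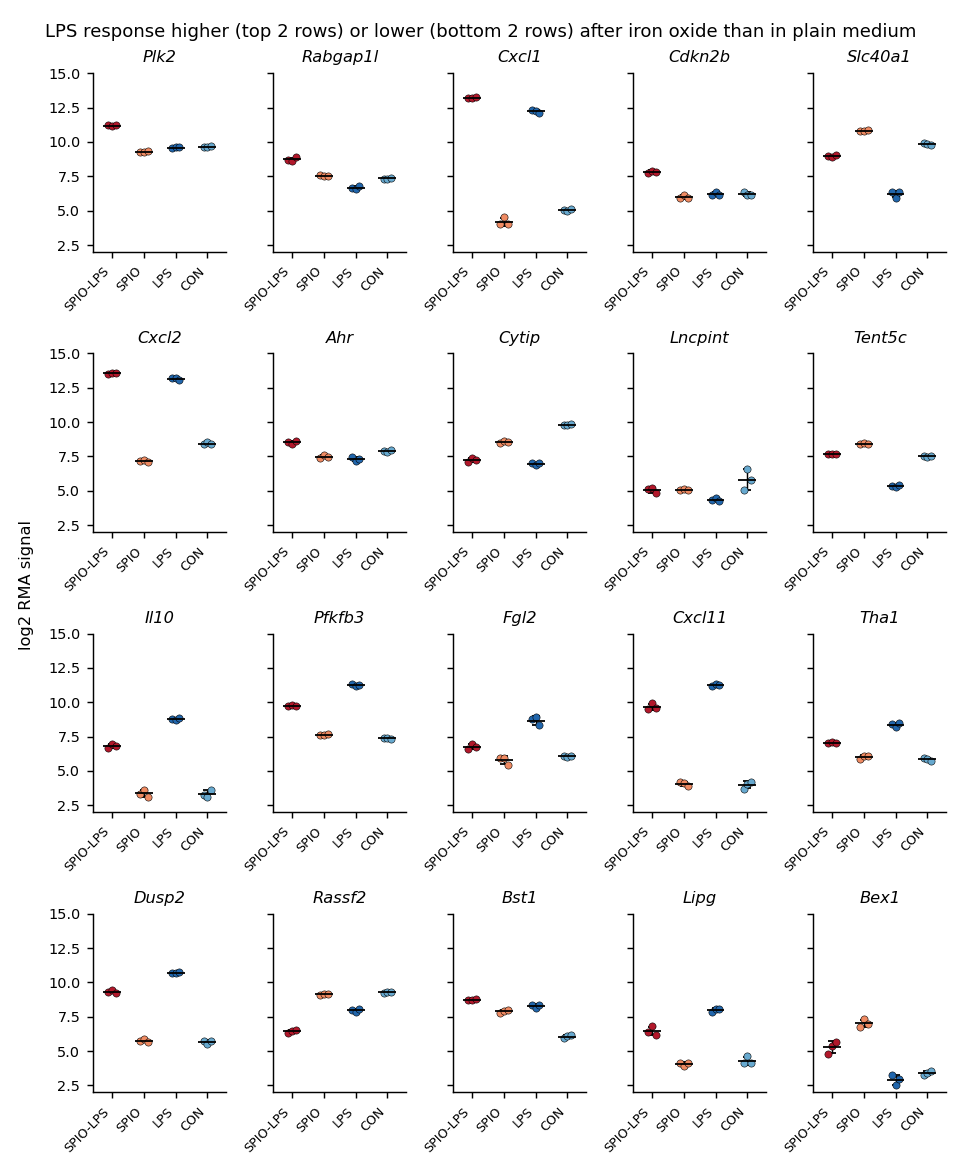
Log2 RMA signal (vertical axis) in SPIO-LPS, SPIO, LPS and CON for the 10 genes whose LPS response was most above (upper 2 rows) and most below (lower 2 rows) that in plain medium; points are arrays, lines means and bars SD of 3 arrays. Slc40a1 is near 9 in SPIO-LPS, below SPIO, and near 6 in LPS, below CON, and Il10 is near 7 in SPIO-LPS and near 9 in LPS.

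Cytokine and chemokine genes differed between the responses in both directions. Of 21 inflammatory cytokines 5 had a higher and 6 a lower response after iron oxide, with a median difference of -0.07. Of 12 CXC chemokines 5 were higher and 2 lower, and of 14 CC chemokines 1 was higher and 4 were lower, against 3.73% higher and 5.07% lower of all genes. Among those with a lower response were Il1rn (-0.73 ± 0.13, adjusted p = 0.00156) and Ccl3 (-0.82 ± 0.10, adjusted p = 8.22e-05). Cxcl1 had the largest higher response of these lists. It read 12.31, 12.24 and 12.14 in LPS, against 5.07, 4.97 and 5.11 in CON, so its response of 9.03 ± 0.13 after iron oxide exceeded that of 7.18 ± 0.13 in plain medium by 1.85 ± 0.18 (adjusted p = 4.85e-06). It was both lower before LPS and higher with it. Cxcl2 behaved likewise, with 13.18, 13.22 and 13.04 in LPS, against 8.38, 8.54 and 8.40 in CON, and a difference of 1.68 ± 0.097 (adjusted p = 4.04e-08). For Il1b the difference was 1.36 ± 0.12 (adjusted p = 1.79e-06), but the arrays with LPS were close, 13.60, 13.60 and 13.56 in SPIO-LPS and 13.80, 13.82 and 13.61 in LPS, and those without it were apart, 5.48, 5.66 and 5.67 in SPIO and 7.25, 6.96 and 7.15 in CON. Il12a, the other subunit of interleukin 12, read 5.86, 6.13 and 6.42 in SPIO-LPS, against 3.92, 3.70 and 3.82 in SPIO, and 4.93, 5.09 and 4.64 in LPS, against 3.78, 3.65 and 3.97 in CON (difference 1.24 ± 0.23, adjusted p = 0.00246). For Il6 it was 0.79 ± 0.16 (adjusted p = 0.00508) and for Tnf 0.44 ± 0.12 (adjusted p = 0.0319), a call lost when 8 of the 12 arrays were left out singly (adjusted p = 0.0521 to 0.0819). Antiviral genes had 14 of 34 higher and 2 lower, against the same 3.73% and 5.07% of all genes. The higher ones include Mx1 at 1.16 ± 0.25 (adjusted p = 0.00748). Its SPIO-LPS arrays, at 12.46, 12.55 and 12.54, lay below those of LPS, at 12.79, 12.86 and 12.73, and the SPIO arrays, at 4.27, 4.66 and 3.81, lay below those of CON, at 5.64, 5.89 and 5.53. Over the 34 antiviral genes the median signal was 11.33 in SPIO-LPS and 11.44 in LPS. Without LPS it was 6.86 in SPIO and 7.51 in CON. These medians cover all 34 genes, of which 18 had no called difference. At which level the 14 higher responses arose was not tested.

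The anti-inflammatory Il10 had the most negative difference of all. It read 6.66, 6.95 and 6.84 in SPIO-LPS, against 3.34, 3.63 and 3.13 in SPIO, and 8.78, 8.73 and 8.83 in LPS, against 3.23, 3.13 and 3.63 in CON. SPIO and CON overlapped, all SPIO-LPS arrays lay below all LPS arrays, and the difference between responses was -1.997 ± 0.19 (adjusted p = 3.95e-06). Pfkfb3 read 11.32, 11.22 and 11.22 in LPS, against 7.37, 7.41 and 7.32 in CON, and its response after iron oxide was lower by 1.78 ± 0.068 (adjusted p = 3.3e-10). Cxcl11 read 9.54, 9.93 and 9.59 in SPIO-LPS, against 4.17, 4.13 and 3.87 in SPIO, and 11.20, 11.32 and 11.23 in LPS, against 3.72, 4.06 and 4.22 in CON (difference -1.62 ± 0.18, adjusted p = 2.78e-05). In both genes the cultures without LPS were close and those with it apart. Dusp2, which switches off MAP kinases in the nucleus, had a response of 3.58 ± 0.076 after iron oxide and 5.05 ± 0.076 in plain medium (difference -1.47 ± 0.11, adjusted p = 3.54e-07). Further negative differences were found for the prothrombinase Fgl2 (-1.63 ± 0.22), the threonine aldolase Tha1 (-1.48 ± 0.13), Rassf2 (-1.37 ± 0.12), the NAD-consuming ectoenzyme Bst1 (-1.37 ± 0.096), the endothelial lipase Lipg (-1.31 ± 0.28) and Bex1 (-1.25 ± 0.30). Bst1 and Bex1 started from a higher level in SPIO than in CON, 7.90 against 6.06 and 7.02 against 3.40. The further positive ones were Cytip (1.52 ± 0.11), Tent5c (1.40 ± 0.13) and the long noncoding RNA Lncpint (1.44 ± 0.39, adjusted p = 0.0301), whose CON arrays spread widely (5.06, 6.60 and 5.80) and whose call was lost without any 1 of 8 arrays (adjusted p up to 0.0689).

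Ferroportin fell less after iron oxide. Slc40a1 read 6.34, 5.92 and 6.35 in LPS, against 9.90, 9.87 and 9.77 in CON, a difference of -3.64 ± 0.095, against -1.82 ± 0.095 after iron oxide, and the gap between the responses was 1.82 ± 0.13 (adjusted p = 3.54e-07). With LPS, all SPIO-LPS arrays lay more than 2 log2 units above all LPS arrays. Of 27 iron genes 1, Slc40a1, had a higher and 3 a lower response, a count near the 3.73% higher and 5.07% lower of all genes, among them Tfrc (-0.48 ± 0.067, adjusted p = 0.000212, or 0.344 when its probe sets were averaged) and Cp (-0.51 ± 0.098, adjusted p = 0.00263). Hp responded by 2.45 ± 0.069 after iron oxide and 3.65 ± 0.069 in plain medium (difference -1.20 ± 0.097, adjusted p = 1.02e-06), while the difference for Hmox1 was not called (0.23 ± 0.10, adjusted p = 0.204), except without CON array 1 (adjusted p = 0.0275). Mt2 and Mt1 responded less, by 1.04 ± 0.080 and 0.87 ± 0.063 (adjusted p = 6.42e-07 and 3.37e-07). Mt1 read 12.58, 12.56 and 12.72 in LPS, against 11.70, 11.73 and 11.71 in CON, a rise that was not seen after iron oxide.

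NRF2 targets had a higher response in 12 of 32 genes and a lower one in 3, against 3.73% and 5.07% of all genes. Gclc, the catalytic subunit that works with Gclm, read 10.12, 10.10 and 10.13 in SPIO-LPS, against 9.90, 9.95 and 9.98 in SPIO, and 8.46, 8.40 and 8.47 in LPS, against 9.33, 9.51 and 9.49 in CON. It thus fell with LPS in plain medium and rose slightly after iron oxide (difference 1.17 ± 0.076, adjusted p = 1.37e-07). Gclm differed by 0.87 ± 0.075 (adjusted p = 1.79e-06), Srxn1 by 1.09 ± 0.093 (adjusted p = 1.79e-06) and Sqstm1 by 0.95 ± 0.064 (adjusted p = 1.72e-07). Srxn1 read 12.16, 12.003 and 12.07 in SPIO-LPS, against 10.25, 10.33 and 10.30 in SPIO, and 9.72, 9.78 and 9.80 in LPS, against 9.03, 8.95 and 9.26 in CON, so that all arrays after iron oxide lay above those of the matching group without it. Gsr, glutathione reductase, was among the 3 with a lower response (-0.41 ± 0.067, adjusted p = 0.000859).

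**Figure D4:**
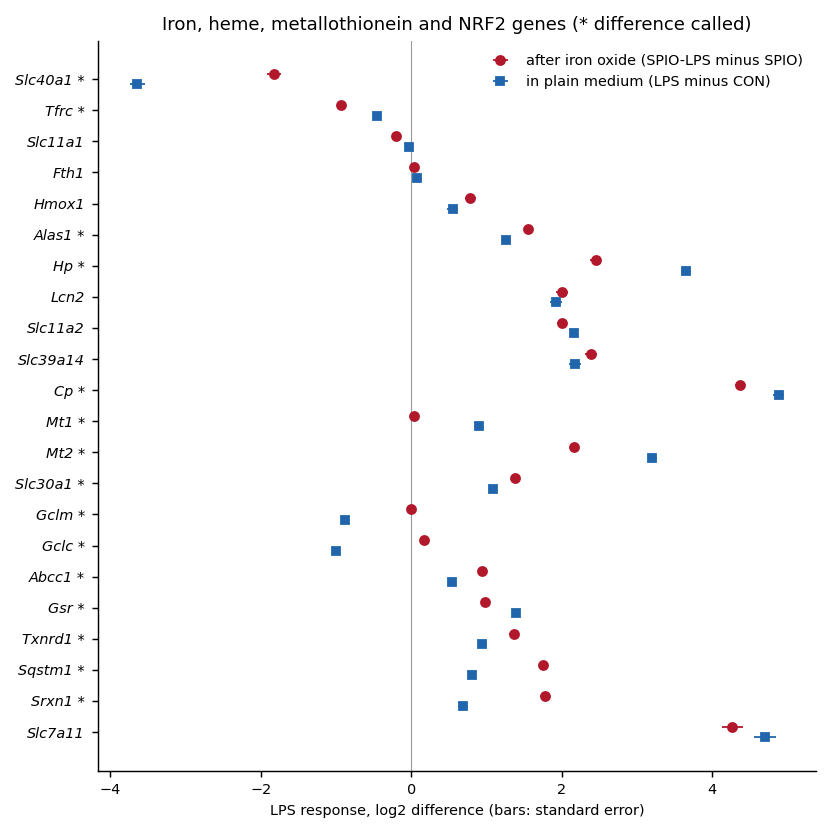
Log2 LPS response (horizontal axis) of 22 iron, heme, metallothionein and NRF2 genes after iron oxide (red circles) and in plain medium (blue squares); bars are standard errors of the model, and an asterisk marks a called difference. Slc40a1 stands at -1.82 after iron oxide and -3.64 in plain medium.

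Silica provided a second particle as reference. Across genes the response after iron oxide correlated at 0.968 with that after silica (Pearson, 12393 genes, a description), and of the 640 raised genes 587 were raised at least 2-fold there too, 91.7% of them and 86.5% of the 679 raised after silica (5.48% of all genes). The difference between these responses was called for 258 genes with a higher (2.08%) and 459 with a lower response after iron oxide (3.7%), 5.79% in all, of which 15 (0.121%) and 17 (0.137%) reached 2-fold. Silica and iron oxide thus differed in the same test by which iron oxide and plain medium differed, though the 2 tests share the arrays of SPIO-LPS and SPIO and are not independent. The largest positive differences were Rabgap1l (1.95 ± 0.097), Plk2 (1.84 ± 0.062), Cdkn2b (1.71 ± 0.12), Slc40a1 (1.70 ± 0.13), Ahr (1.51 ± 0.11), Cxcl1 (1.45 ± 0.18), Tent5c (1.29 ± 0.13), Il1b (1.22 ± 0.12), Cxcl2 (1.16 ± 0.097) and Phlda1 (1.16 ± 0.066) (log2 difference ± standard error). The largest negative ones were Tha1 (-1.49 ± 0.13), Il10 (-1.47 ± 0.19), Dusp2 (-1.47 ± 0.11), Pfkfb3 (-1.47 ± 0.068), Saa1 (-1.35 ± 0.23), Bst1 (-1.30 ± 0.096), Ch25h (-1.28 ± 0.11), Bex1 (-1.23 ± 0.30), Gadd45a (-1.16 ± 0.095) and Rassf2 (-1.13 ± 0.12). Slc40a1 responded by -3.52 ± 0.095 after silica, Il10 by 4.92 ± 0.13 and Plk2 by 0.04 ± 0.044, against -1.82 ± 0.095, 3.45 ± 0.13 and 1.88 ± 0.044 after iron oxide. The largest adjusted p among these 20 genes was that of Bex1 (0.0234), which was lost without any 1 of 6 arrays (adjusted p up to 0.0675).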

How the data were processed

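Per the labels' protocols, 3 µg of total RNA per culture was labelled with biotin by the Affymetrix one-cycle procedure from an oligo-dT primer and hybridised to 1 array. The authors deposited log2 values made with RMA (robust multi-array average), per the submitters' processing notes; the version is not given in the sources used here. RMA corrects background, equalises the distributions of the arrays and summarises probes, which compresses differences at both ends of the scale and hides a shift common to all genes.

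Of 22690 probe sets 64 controls were left out. Of the other 22626, 20380 had 1 gene symbol, 691 several and 1555 none in the platform annotation, and 20351 symbols were updated through the gene ID. The probe set with the highest mean over the 18 arrays stood for each of 12393 genes, of which 4956 had more than 1. Probe sets of 1 gene were called in opposite directions for 310 genes, and at least 2-fold each way for 2 genes. Of the genes selected for naming, as described below, 7 were among the 310. They are not marked in the Results, where each direction is that of the probe set with the highest mean.

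All 18 arrays entered 1 fit of group means in limma 3.58.1 (R 4.3.3) with eBayes and no block. The tests were SPIO-LPS minus SPIO and the difference of that response from LPS minus CON and from Silica-LPS minus Silica, each with Benjamini-Hochberg adjustment over all genes and a threshold of 0.05. The fit was tested on simulated data with changes of known size added to SPIO-LPS. Of changes of 0.5 log2 units, 85.1% were recovered for SPIO-LPS minus SPIO and 58.2% for each difference between responses. At 0.25 the shares were 32.8%, and 19.4% and 17.9% for the differences from plain medium and silica. Small differences between responses could thus often go uncalled. Figures and counts used Python 3.11.15, pandas 2.3.3, numpy 2.4.6 and matplotlib 3.10.9. Promoters came from RefSeq. The number of arrays limits the precision.

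Genes named were the 20 largest rises and falls whose arrays did not overlap, the 10 largest differences between responses each way, up to 6 changed, 3 opposed and 3 uncalled members of each of 47 lists, and 58 chosen genes, of which 56 were measured. Of these not every list member is printed. Gclc, Il12a, Slc39a8 and Cd68 fall outside that rule and were chosen after their values were seen. The members and lists were chosen with earlier results of these data known. Alternatives were a replicate block, a fit on the compared arrays alone, a robust trended prior, a filter on the dimmest 33.3% of genes, other uses of probe sets, cyclic loess, array weights and each array removed in turn.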

Additional observations from a re-analysis of the deposited data

Results flagged for a closer look

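Among the genes the report names, those listed here had an LPS response after iron oxide that differed at least 2-fold from another response, by the limma test of the difference itself at an adjusted p below 0.05. Against plain medium the response was higher, on the log2 scale, for Plk2 (1.94), Rabgap1l (1.90), Cxcl1 (1.85), Cdkn2b (1.83), Slc40a1 (1.82), Cxcl2 (1.68), Ahr (1.66), Cytip (1.52), Lncpint (1.44), Tent5c (1.40), Il1b (1.36), Il12a (1.24), Gclc (1.17), Mx1 (1.16) and Srxn1 (1.09). It was lower for Il10 (-1.997), Pfkfb3 (-1.78), Fgl2 (-1.63), Cxcl11 (-1.62), Tha1 (-1.48), Dusp2 (-1.47), Bst1 (-1.37), Rassf2 (-1.37), Lipg (-1.31), Bex1 (-1.25), Irf8 (-1.25), Hp (-1.20) and Mt2 (-1.04). Against silica it was higher for Rabgap1l (1.95), Plk2 (1.84), Cdkn2b (1.71), Slc40a1 (1.70), Ahr (1.51), Cxcl1 (1.45), Tent5c (1.29), Il1b (1.22), Cxcl2 (1.16) and Phlda1 (1.16), and lower for Tha1 (-1.49), Dusp2 (-1.47), Il10 (-1.47), Pfkfb3 (-1.47), Saa1 (-1.35), Bst1 (-1.30), Ch25h (-1.28), Bex1 (-1.23), Gadd45a (-1.16) and Rassf2 (-1.13). The 2 comparisons share the SPIO-LPS and SPIO arrays.

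Probe sets that the gene-level comparisons leave out also carried signal. Of the 691 with several gene symbols 446 were called between SPIO-LPS and SPIO (64.5%), 149 higher and 297 lower. Of the 1555 with no symbol 704 were called (45.3%), 394 higher and 310 lower.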

How the results depend on the processing

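Counts of called genes stayed within 1.5 times of the reported ones under every alternative except testing each of 20380 probe sets on its own, where more features were tested. There 12375 probe sets were called between SPIO-LPS and SPIO, 5448 higher and 6927 lower, 1016 of them higher at least 2-fold, and 48 and 29 had a response at least 2-fold lower after iron oxide than in plain medium and after silica. With each array left out in turn, 7221 to 7858 genes were called between SPIO-LPS and SPIO, and 885 to 1089 and 562 to 708 for the differences from plain medium and silica. After cyclic loess 3757 genes were higher and 3686 lower. Without the dimmest 33.3% of genes, 2324 of 8262 were higher and 4343 lower. Of 3086 values of 221 named genes for SPIO-LPS minus SPIO, 3042 kept their direction and side of the threshold, 28 lost and 16 gained a call, and 0 reversed. For the difference from plain medium 755 of 777 values were kept, 21 lost and 1 gained a call, and for silica 392 of 398 were kept and 6 lost. The cause of the changed calls was not tested. The block, the robust trended prior, the dim-gene filter and the compared arrays alone left each log2 difference unchanged, so no reversal could occur there. Testing each probe set on its own read the same probe set for a named gene. Of the other uses of probe sets, only the mean could change a difference. With the replicate number as a block, 3347 genes were higher and 4525 lower, and 420 and 595, and 246 and 433, for the differences from plain medium and silica. The block ended the call of Tnf against plain medium (adjusted p = 0.0526). Between SPIO-LPS and SPIO it ended the call of Ppbp (adjusted p = 0.0543) and gave one to Ifitm6 (adjusted p = 0.0213). Deviations of same-numbered SPIO-LPS and SPIO arrays correlated at 0.103, -0.095 and 0.075. For LPS with CON the values were 0.057, -0.047 and 0.118, and for Silica-LPS with Silica 0.177, 0.002 and 0.104. With 3 arrays per group, such values cannot show whether same-numbered cultures shared a day or an animal. Motif shares over the 250 bases before the start kept the order of raised against all promoters for all 7 motifs. Signals near either end of the scale limit the size of a difference.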
